A study of Mus musculus with 6 samples.

Results

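Kinesins are motor proteins that walk along microtubules, and 43 protein-coding genes with a symbol that begins with Kif and a number or the letter c were taken from the deposited gene table, of 55573 genes in all. One of the 43, Kif1bp, encodes a protein that binds a kinesin and is not itself a motor. The others were sorted by textbook role into 12 mitotic kinesins, 15 transport kinesins and, with Kif1bp, 16 remaining genes.

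Expression was measured in 6 mouse RNA samples, 3 of genotype WT and 3 of genotype Abcc4-/-, with megakaryocytes, which shed platelets, as the labelled cell type. Abcc4 encodes a membrane pump that exports cyclic nucleotides and nucleotide-type drugs. The labels name no treatment, age, strain or deleted exons, and the sample titles contain BM and CD41, a surface protein of megakaryocytes. Separate animals are not stated for the replicates, so each p-value below reflects only the spread among these samples, and that spread may be technical.

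A kinesin couples ATP hydrolysis in its motor domain to a step along the microtubule or to removal of tubulin from its end. Mitotic kinesins build the spindle, move chromosomes and drive cytokinesis, and their transcripts are known to peak late in the cell cycle. Transport kinesins carry vesicles, mitochondria and mRNA, in dividing and non-dividing cells alike. Megakaryocytes are known for endomitosis, in which the chromosomes are copied and the late steps of division fail, and for microtubules that extend proplatelets and carry granules into them.

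The late cell-cycle pattern of mitotic genes is known to be read from a short promoter element, the cell cycle genes homology region (CHR), often beside a CCAAT box bound by NF-Y. The RefSeq promoter windows (GRCm38.p6, 250 bases before to 50 after the annotated start) were therefore searched on both strands for TTTGAA, the CHR letters, and for CCAAT. The CHR letters were in 10 of the 11 mitotic kinesins with a window (90.9%), in 1 of 10 transport kinesins (10%) and in 3 of 13 remaining genes (23.1%), against 17.9% of all 32851 windows. CCAAT was in 7 of 11 mitotic kinesins (63.6%), in 3 of 10 transport kinesins (30%) and in 7 of 13 remaining genes (53.8%), against 37.4% of all windows. Windows were matched for 34 of the 43 genes. A match is a description of these letters, not a binding site.

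The windows of the 4 mitotic kinesins with the highest TPM that hold TTTGAA are printed to show how near these letters lie to the start, with the 2 transport kinesins of highest TPM that have a window, for contrast. All run 5′ to 3′ on the gene's strand, with matches to TTTGAA (or TTCAAA on the other strand) and CCAAT (or ATTGG) in capitals and all other bases in lower case. Kif23 lies at chr9:61946750-61947049 (minus strand), Kif22 at chr7:127042371-127042670 (minus strand), Kif11 at chr19:37376132-37376431 (plus strand) and Kifc1 at chr17:33890584-33890883 (minus strand). Kif13a lies at chr13:46929669-46929968 (minus strand) and Kif1c at chr11:70700298-70700597 (plus strand).
Kif23: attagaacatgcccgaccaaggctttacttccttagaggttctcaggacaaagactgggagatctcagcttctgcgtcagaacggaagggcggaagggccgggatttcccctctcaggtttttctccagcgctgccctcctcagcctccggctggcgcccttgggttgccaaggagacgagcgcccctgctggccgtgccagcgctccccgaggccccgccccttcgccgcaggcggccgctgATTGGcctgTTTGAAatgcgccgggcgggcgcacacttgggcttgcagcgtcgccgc
Kif22: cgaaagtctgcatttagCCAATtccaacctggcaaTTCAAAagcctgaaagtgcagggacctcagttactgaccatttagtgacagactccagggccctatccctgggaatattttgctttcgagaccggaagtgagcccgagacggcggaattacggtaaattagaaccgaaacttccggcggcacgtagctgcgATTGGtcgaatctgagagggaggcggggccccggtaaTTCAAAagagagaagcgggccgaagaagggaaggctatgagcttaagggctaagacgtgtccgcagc
Kif11: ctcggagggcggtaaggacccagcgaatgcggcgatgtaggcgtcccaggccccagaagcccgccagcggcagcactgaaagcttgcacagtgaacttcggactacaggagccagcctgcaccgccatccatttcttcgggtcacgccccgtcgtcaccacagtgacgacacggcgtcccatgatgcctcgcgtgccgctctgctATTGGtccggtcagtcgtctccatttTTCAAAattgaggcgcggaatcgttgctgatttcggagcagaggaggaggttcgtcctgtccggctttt
Kifc1: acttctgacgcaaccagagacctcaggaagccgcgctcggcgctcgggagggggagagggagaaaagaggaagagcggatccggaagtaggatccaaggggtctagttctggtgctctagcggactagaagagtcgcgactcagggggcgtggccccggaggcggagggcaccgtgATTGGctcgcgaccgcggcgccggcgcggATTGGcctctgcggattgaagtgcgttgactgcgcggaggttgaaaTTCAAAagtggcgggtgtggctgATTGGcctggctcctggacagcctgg
Kif13a: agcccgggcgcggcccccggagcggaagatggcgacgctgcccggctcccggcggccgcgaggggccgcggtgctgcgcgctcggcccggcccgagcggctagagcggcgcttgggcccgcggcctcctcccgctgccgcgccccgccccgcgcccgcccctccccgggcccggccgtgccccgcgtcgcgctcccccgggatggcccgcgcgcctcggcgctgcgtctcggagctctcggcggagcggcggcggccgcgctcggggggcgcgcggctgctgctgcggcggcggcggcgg
Kif1c: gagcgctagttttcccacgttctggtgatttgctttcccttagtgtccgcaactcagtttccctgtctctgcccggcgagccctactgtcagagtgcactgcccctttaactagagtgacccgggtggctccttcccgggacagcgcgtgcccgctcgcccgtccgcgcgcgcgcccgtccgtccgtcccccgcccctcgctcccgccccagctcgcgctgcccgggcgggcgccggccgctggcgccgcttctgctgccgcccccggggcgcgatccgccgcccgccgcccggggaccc

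In Kif11 the TTTGAA match begins 19 bases before the start, with a CCAAT match 45 bases before it. In Kif22 one match begins 17 bases before the start, with CCAAT at 54. The Kif23 match begins 2 bases after the start and the Kifc1 match 1 base after it. All distances are from the RefSeq start. The annotation used for gene positions begins Kif11, Kif22, Kif23 and Kifc1 at other bases, so these distances depend on the start used. Of the 34 genes with a window, 26 had the 25 bases after the RefSeq start in an annotated transcript. The windows printed for Kif13a and Kif1c hold neither motif. Within 50 bases of the start, a distance chosen after the positions were seen, TTTGAA began in 8 of the 11 mitotic kinesins (72.7%). It began there in 1 of 10 transport kinesins (10%), in 2 of 13 remaining genes (15.4%) and in 4.94% of all windows. The mitotic kinesin without TTTGAA in its window was Kif18a.

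**Figure D1:**
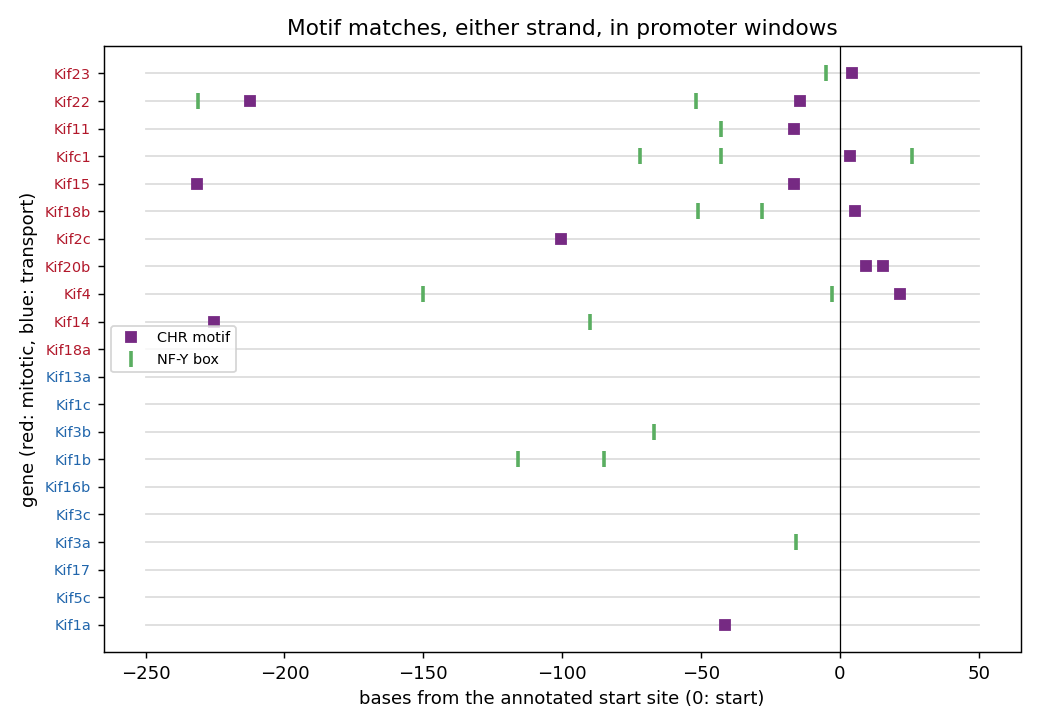
Positions of TTTGAA (CHR motif, squares) and CCAAT (NF-Y box, ticks) on either strand, in bases from the annotated start, for the mitotic (red) and transport (blue) kinesins with a promoter window. Squares lie in 10 of 11 mitotic and 1 of 10 transport kinesins, most of them close to the start.

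The libraries held 50440239 to 55123512 counts in WT and 67009925 to 99294493 in Abcc4-/-, and no library stood apart from its group by correlation (0.993 to 0.995 within groups across genes). Abcc4 stood at 74.2, 71.8 and 75.7 CPM (counts scaled to the normalized library size) in WT and at 60.1, 60.6 and 62.3 CPM in Abcc4-/-. It was lower in each Abcc4-/- library (log2 fold change -0.28, SE 0.05; edgeR adjusted p = 0.0026), and most of its signal was still counted, which does not check the labels where the deleted part is unknown. The defining megakaryocyte genes were present: 10 markers summed to 222 to 292 TPM in WT and 133 to 166 in Abcc4-/-, while 10 neutrophil markers summed to 57895 to 71943 and 105564 to 108495 TPM. Markers of B-lineage cells summed to 363 to 499 TPM in WT and 693 to 772 in Abcc4-/-. The neutrophil and B-lineage sums were above the megakaryocyte sum in every library. So were the sums of erythroid markers and of mast cell and basophil markers. The sum of T and NK markers was above it in the Abcc4-/- libraries only. Marker sums do not give cell shares, but the kinesin levels below cannot be assigned to megakaryocytes alone. In these bulk samples, fewer cells of a type and less RNA per cell cannot be told apart.

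Mitotic kinesins were the more abundant class, with every member expressed. TPM, which scales counts by transcript length and library, allows levels of different genes to be compared. Mean TPM over the 6 libraries ran from 9.71 to 118 for the mitotic kinesins (median 34.5) and from 0.0867 to 42.6 for the transport kinesins (median 6.43). Summed over each class, mitotic kinesins stood at 532, 506 and 588 TPM in WT and at 477, 481 and 495 in Abcc4-/-. Transport kinesins stood at 149, 137 and 161 TPM in WT and at 128, 136 and 143 in Abcc4-/-. The mitotic sum was below the WT range in each Abcc4-/- library on the TPM scale, whereas the summed CPM overlapped (969 to 1092 in WT, 951 to 986 in Abcc4-/-). Over all genes tested, the median log2 fold change was -0.06 on log2(TPM + 1), beside 0.00 on counts. The TPM scale was thus shifted down for genes in general. The transport sums overlapped on both scales. The ratio of mitotic to transport TPM was 3.64 ± 0.0560 in WT and 3.57 ± 0.139 in Abcc4-/- (SD, n = 3), and the ranges of the groups overlapped (3.58 to 3.69 and 3.45 to 3.72).

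**Figure D2:**
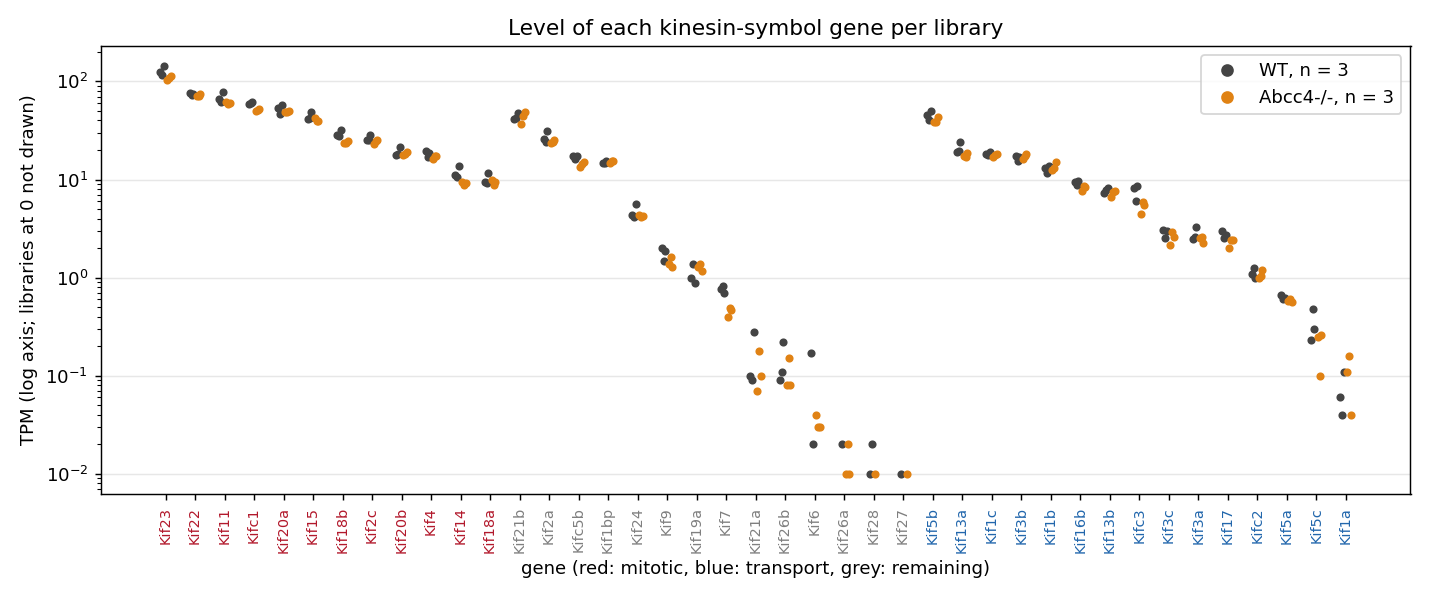
TPM of each gene with a mean above 0 in each library (log axis; black WT, orange Abcc4-/-, 3 libraries each; values of 0 are not drawn), in order of mean TPM within each class. Mitotic kinesins (red) lie between 9.71 and 118 on average, while transport kinesins (blue) and the remaining genes (grey) extend to below 1.

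Kif23, the motor of the centralspindlin complex that organizes the midzone for cytokinesis, was the most abundant kinesin (mean 118 TPM), above 92.5% of all genes tested. Next came the chromokinesin Kif22 (73.1 TPM), the spindle-pole separating motor Kif11 (64.6), the minus-end-directed Kifc1 (55.7) and the cytokinesis motor Kif20a (50.9). Kif21b, which pauses microtubule growth and is known from lymphocytes and neurons, was the most abundant outside the mitotic class (43.6 TPM), close to the vesicle motor Kif5b (42.6) and the spindle motor Kif15 (42.4). The group means of these last 3 lay within 1 SD of one another in WT: 43.8 ± 3.43 TPM for Kif21b, 45.3 ± 4.89 for Kif5b and 44.2 ± 4.21 for Kif15 (n = 3).

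Within the Kif5 and Kif3 subfamilies of transport kinesins, a single paralog carried most of the signal. Kif5b made up 97.4% to 98.2% of the summed TPM of Kif5a, Kif5b and Kif5c, the heavy chains of conventional kinesin, of which the others are known as neuronal forms. Kif3b made up 73.0% to 79.0% of Kif3a, Kif3b and Kif3c TPM, although the Kif3a and Kif3b proteins are known to pair in 1 motor. Kif1c and Kif1b shared the Kif1 signal (54.7% to 60.1% and 39.8% to 45.2%), and the neuronal Kif1a held at most 0.515%. Among the remaining genes, Kif21b held at least 99.4% of the Kif21 signal. In each of these subfamilies the leading paralog was the same in all 6 libraries.

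In all, 37 of the 43 genes passed the filter on low counts, among them every mitotic and every transport kinesin and 10 of the 16 remaining genes. The 6 that did not were Kif12 and Kif2b, with 0 counts in each library, and Kif6, Kif26a, Kif27 and Kif28, with at most 10. A count of 0 here allows up to 3 counts, or 0.0304 to 0.0591 CPM depending on the library, and this limit covers counting error only.

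The comparison of genotypes asks whether kinesin transcripts differ where the pump gene is mutated. Of the 37 kinesin genes, 6 fell in Abcc4-/- and 0 rose at an adjusted p below 0.05 (edgeR quasi-likelihood test, Benjamini-Hochberg over all genes tested). This is 16.2% of the kinesin genes, against 17.3% of all 16493 genes tested, so the share called was near the background. All 6 calls were decreases, where 8.68% of all genes were called lower and 8.61% higher. At an unadjusted p below 0.05, 9 kinesin genes were lower and 4 higher (35.1%, against 30.9% of all genes tested), and DESeq2 and limma-voom also called 0 higher. The CPM ranges of the groups did not overlap for 13 of 37 (35.1%, against 36.8% of all genes tested). The genes that fell were the mitotic Kif18b, Kif23 and Kifc1, the transport kinesin Kifc3, and Kifc5b and Kif7 of the remaining genes. Kifc1 and Kifc5b are near-identical copies with reads divided between them, so the 6 calls may count 1 signal as 2. The count dropped to 2 (Kif7 and Kifc3) without Abcc4-/- replicate 1 or 2, and to 3 without WT replicate 1 or Abcc4-/- replicate 3. It was 1 to 3 with limma on the TPM scales. Calls over all genes fell as well, to 11% and 10.6% without Abcc4-/- replicate 1 and 2, from 17.3% with all libraries. They were 13.4% without WT replicate 1, 12.9% without Abcc4-/- replicate 3 and 12.1% to 13.1% with limma on the TPM scales.

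Changes among the mitotic kinesins were small. Of the 12, 3 fell and 0 rose (25%, against 17.3% of all genes tested called in either direction), with 4 lower and 0 higher at an unadjusted p below 0.05 (33.3%, against 30.9%), and DESeq2 called 0 higher as well. The fold change was below 0 for 11 of 12, with a median log2 fold change of -0.07 and a range of -0.22 to 0.05, beside a median of 0.00 over all genes tested, of which 49.8% lay below 0. Of the 15 transport kinesins, 1 fell and 0 rose (6.67%, against the same 17.3%), with 3 lower and 2 higher at an unadjusted p below 0.05 (33.3%), and DESeq2 called 0 higher. The difference between 3 of 12 and 1 of 15 was not tested. The fold change was also below 0 for 10 of 15 transport kinesins (66.7%) and for 7 of the 10 remaining genes that passed the filter (70%). The transport median was -0.06, with a range of -0.43 to 0.16. It moved to -0.13 without WT replicate 2, to -0.10 without Abcc4-/- replicate 1 and to -0.03 without WT replicate 3. The medians of the classes differed by -0.01, and this difference changed sign in 9 of the 20 alternatives tried, so mitotic and transport kinesins were not told apart by it. Without Abcc4-/- replicate 1 or 2 no mitotic kinesin was called, and without WT replicate 1 or Abcc4-/- replicate 3 only 1 was. In each of these settings a smaller share of all genes was called too.

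Kif18b, a plus-end motor that shortens astral microtubules, had 64.1, 63.6 and 70.0 CPM in WT and 56.3, 56.9 and 56.7 CPM in Abcc4-/-. Every Abcc4-/- library lay below the lowest WT library, and the 3 differed little from one another. The gene (ENSMUSG00000051378.10, chromosome 11, GRCm38 positions 102905529 to 102925124, minus strand) fell by 0.22 on the log2 scale (SE 0.05; edgeR adjusted p = 0.0145). Its call was kept in 17 of 19 alternatives and was lost without Abcc4-/- replicate 1 (adjusted p = 0.0517) or 2 (0.0562), in a range of 0.00541 to 0.0562.

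Kif23 had 128, 114 and 136 CPM in WT and 110.1, 109.7 and 109.3 CPM in Abcc4-/-. The Abcc4-/- libraries lay just below the lowest WT library, WT replicate 2, and the WT libraries were more widely spread. The gene (ENSMUSG00000032254.10, chromosome 9, positions 61915905 to 61946774, minus strand) fell by 0.20 on the log2 scale (SE 0.06; edgeR adjusted p = 0.0473). This call sat at the threshold: it was lost in 10 of 19 alternatives, among them leaving out any library but WT replicate 2 (adjusted p = 0.103 to 0.130).

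Kifc1, the minus-end-directed motor that focuses spindle poles, had 86.8, 89.1 and 86.9 CPM in WT and 79.5, 78.4 and 77.4 CPM in Abcc4-/-. Its near-identical copy Kifc5b, also on chromosome 17, had 26.5, 24.99 and 25.7 CPM in WT and 21.8, 22.4 and 22.9 CPM in Abcc4-/-. Both were below the WT range in each Abcc4-/- library, with log2 fold changes of -0.16 (SE 0.05; edgeR adjusted p = 0.0328) and -0.20 (SE 0.05; adjusted p = 0.0255). Among the 43, only these had fractional expected counts, the mark of reads divided between copies, so their separate values are uncertain. Kifc1 held 77.2% to 79.1% of the summed TPM of the pair, with no difference between groups beyond the replicate spread. Each lost its call in 7 of 19 alternatives: Kifc1 without any library but WT replicate 3 (adjusted p = 0.0584 to 0.120), and Kifc5b without WT replicate 1 or any Abcc4-/- replicate (0.0532 to 0.0954).

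Kif14, which acts in the midbody with the citron kinase, had 50.9, 49.9 and 58.5 CPM in WT and 46.4, 45.6 and 48.9 CPM in Abcc4-/-. The groups did not overlap, and the log2 fold change of -0.18 (SE 0.07) did not pass (edgeR adjusted p = 0.0877). It passed without a filter on low counts (adjusted p = 0.0477). Kif4, the X-linked chromokinesin that condenses chromosome arms, had 62.4, 57.7 and 62.4 CPM in WT and 57.5, 56.9 and 57.1 CPM in Abcc4-/-. Its groups did not overlap either, by a narrow margin over WT replicate 2 (log2 fold change -0.09, 95% interval -0.20 to 0.02; adjusted p = 0.252).

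Non-overlapping groups were seen for 5 of the 12 mitotic kinesins (41.7%), against 36.8% of all genes tested, so this share was near the background. Among the 15 transport kinesins the share was 33.3%. For the other 7 mitotic kinesins the groups overlapped and the test was not passed. Kif11, the motor that pushes the spindle poles apart, had 228, 215 and 253 CPM in WT and 227, 212 and 211 CPM in Abcc4-/- (log2 fold change -0.10, 95% interval -0.24 to 0.04). Kif20a, the passenger-complex carrier of cytokinesis, had 97.9, 86.8 and 97.4 CPM in WT and 94.99, 90.98 and 91.8 CPM in Abcc4-/- (-0.02, -0.15 to 0.10). Kif22 was the only mitotic kinesin with a value above 0 (0.05, -0.06 to 0.15), and it turned to -0.03 on log2(TPM + 1) and -0.04 on log2(TPM + 0.1). Kif15, which backs up Kif11 in the spindle, stood at -0.05 (-0.18 to 0.08), and the microtubule depolymerase Kif2c at -0.02 (-0.13 to 0.09). The cytokinesis motor Kif20b stood at -0.04 (-0.21 to 0.12) and Kif18a, which aligns chromosomes at the metaphase plate, at 0.00 (-0.18 to 0.18). Across these edgeR intervals, each a 95% interval of a single gene, the lowest limit was -0.24 and the highest 0.18 on the log2 scale. They reflect only the spread among these samples, so larger changes are not excluded.

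**Figure D3:**
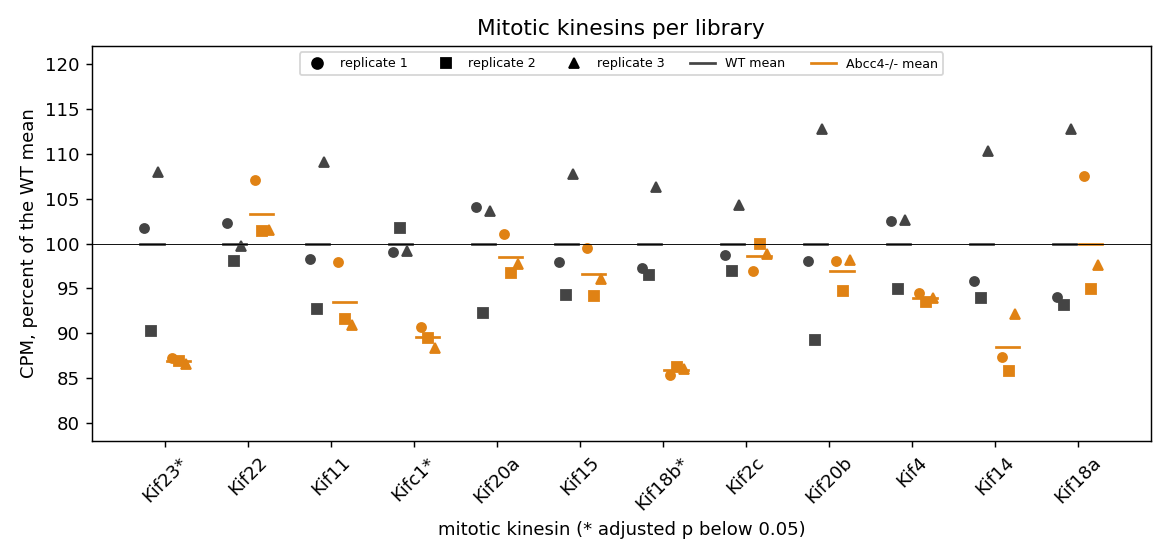
CPM of each mitotic kinesin in each library as a percentage of its WT mean (black WT, orange Abcc4-/-; circle, square and triangle are replicates 1 to 3; short lines are group means; the axis does not start at 0). The Abcc4-/- points of Kif23, Kifc1, Kif18b, Kif4 and Kif14 lie below all WT points, and WT replicate 3 is the highest WT point for most genes. Groups apart in 5 of 12 genes (41.7%) compare with 36.8% of all genes tested, in either direction.

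The WT libraries differed from one another across the mitotic class, and transport kinesins deviated in the same direction in WT replicates 2 and 3 only. In WT replicate 3, 10 of the 12 mitotic kinesins lay above their WT mean, by a median of 0.10 on the log2 scale. In WT replicate 2, 11 of 12 lay below it, with a median of -0.08, while over all genes tested the median in these libraries was 0.00. Of the 15 transport kinesins, 12 lay below their WT mean in WT replicate 2 (median -0.07), and the median in WT replicate 3 was 0.02. In WT replicate 1 the mitotic and transport medians had opposite signs (-0.02 and 0.01). The mitotic medians of Abcc4-/- replicates 1, 2 and 3 were 0.02, -0.03 and -0.01. The transport medians there were -0.05, 0.04 and 0.01, again of opposite sign. The mitotic median of -0.07 moved to -0.01 without WT replicate 3 and to -0.12 without WT replicate 2, so its size rested on which WT libraries were compared. The 39 spindle and division partners deviated in the same direction in these libraries (0.04 in WT replicate 3 and -0.04 in WT replicate 2).

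**Figure D4:**
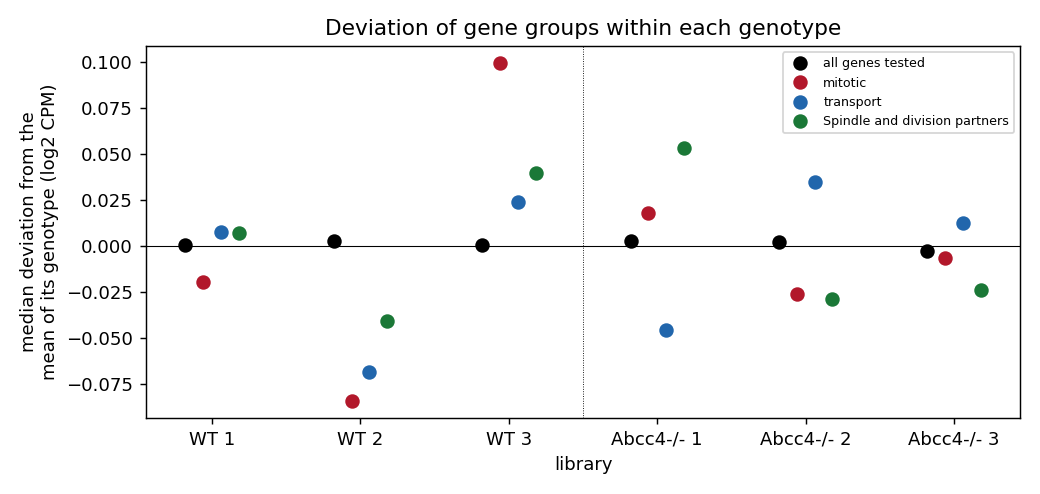
Median deviation of each gene group from the mean of its own genotype, in log2 CPM, for each library (12 mitotic and 15 transport kinesins, 39 spindle partners, all 16493 genes tested). The mitotic median is highest in WT replicate 3 (0.10) and lowest in WT replicate 2 (-0.08).

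Among transport kinesins, Kifc3 fell. This minus-end-directed motor, known from adherens junctions and apical transport in epithelia, had 12.7, 11.3 and 11.98 CPM in WT and 9.08, 9.67 and 8.36 CPM in Abcc4-/-. The ranges were clearly apart. The gene (ENSMUSG00000031788.14, chromosome 8, positions 95099828 to 95202812, minus strand) fell by 0.41 on the log2 scale (SE 0.08; edgeR adjusted p = 0.00567). It kept its call without each library in turn and lost it with limma on each TPM scale (adjusted p = 0.0666 to 0.101).

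The most abundant transport motors did not pass. Kif5b, the heavy chain that carries mitochondria and vesicles, had 176, 156 and 184 CPM in WT and 160, 156 and 163 CPM in Abcc4-/- (log2 fold change -0.11, 95% interval -0.25 to 0.03). Kif13a, which moves endosomes and melanosome cargo, had 69.9, 66.6 and 73.0 CPM in WT and 62.1, 63.9 and 63.8 CPM in Abcc4-/- (-0.14, -0.25 to -0.03; edgeR adjusted p = 0.0778). Its groups did not overlap. The same held for the early-endosome motor Kif16b, with 31.7, 30.6 and 32.8 CPM in WT and 27.6, 29.0 and 28.9 CPM in Abcc4-/- (-0.15, -0.27 to -0.03; adjusted p = 0.0742), which passed when depth was thinned to the smallest library (0.0487).

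Other transport motors stood higher in Abcc4-/- without passing. Kif3b, a subunit of the motor of intraflagellar and vesicle transport, had 69.6, 62.8 and 65.8 CPM in WT and 69.8, 73.5 and 74.7 CPM in Abcc4-/- (log2 fold change 0.14, 95% interval 0.02 to 0.26; edgeR adjusted p = 0.109). Kif1b, which carries mitochondria and synaptic vesicle precursors, had 64.2, 60.8 and 66.7 CPM in WT and 67.01, 68.2 and 75.6 CPM in Abcc4-/- (0.14, 0.01 to 0.27; adjusted p = 0.143). Both pairs of ranges were apart by under 1 CPM. Kif1c, which moves vesicles and mRNA, had 68.0, 67.1 and 67.2 CPM in WT and 66.5, 70.1 and 68.7 CPM in Abcc4-/-. Its log2 fold change was 0.02 (-0.08 to 0.12), and -0.06 on the TPM scales without centring. The least abundant members, Kif1a and Kif5c, had intervals of -1.01 to 0.89 and -0.99 to 0.13, so changes within these intervals were not excluded.

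Of the remaining genes, Kif7 fell. Kif7, which organizes the tip of the primary cilium in Hedgehog signalling, had 2.47, 2.72 and 2.15 CPM in WT and 1.403, 1.67 and 1.56 CPM in Abcc4-/-. It was lower in each Abcc4-/- library than in any WT library. The gene (ENSMUSG00000050382.14, chromosome 7, positions 79698098 to 79715720, minus strand) fell by 0.66 on the log2 scale (SE 0.15; edgeR adjusted p = 0.012), the largest change among the kinesin genes called. It kept its call in 18 of 19 alternatives and lost it with limma on centred log2(TPM + 1) (adjusted p = 0.125). On log2(TPM + 1) without centring it kept the call (0.0262).

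The other abundant genes of this class did not pass. Kif21b had 253, 253 and 277 CPM in WT and 240, 289 and 292 CPM in Abcc4-/-, with overlapping groups (log2 fold change 0.07, 95% interval -0.10 to 0.24, and -0.02 on the TPM scales without centring). The microtubule depolymerase Kif2a had 64.0, 61.8 and 67.9 CPM in WT and 61.7, 61.7 and 63.9 CPM in Abcc4-/- (-0.05, -0.16 to 0.07). Kif1bp had 21.2, 22.1 and 21.7 CPM in WT and 23.4, 24.4 and 24.1 CPM in Abcc4-/- (0.15, 0.03 to 0.26; edgeR adjusted p = 0.0866), and its groups did not overlap. The ciliary length regulator Kif19a had 1.13, 1.83 and 1.47 CPM in WT and 2.23, 2.17 and 1.83 CPM in Abcc4-/- (0.49, 0.09 to 0.90; adjusted p = 0.0932), and the groups overlapped. It passed without WT replicate 2 (adjusted p = 0.0396), the WT library in which it was highest.

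**Figure D5:**
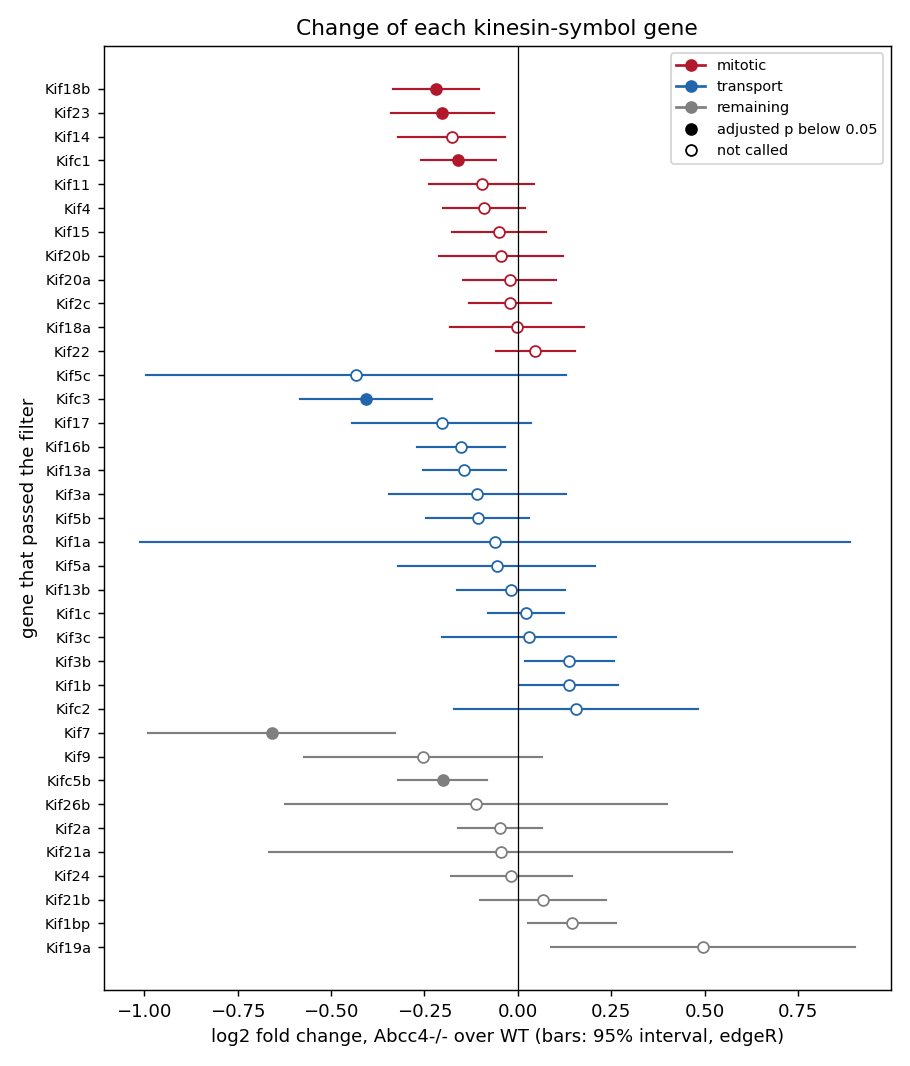
Log2 fold change of Abcc4-/- over WT for the 37 genes that passed the filter, with 95% intervals from edgeR (red mitotic, blue transport, grey remaining; filled points have an adjusted p below 0.05). The 6 filled points all lie left of 0, and the mitotic intervals lie between -0.34 and 0.18.

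Mitotic kinesins work with other spindle, checkpoint and cytokinesis proteins. Of 39 genes for such partners, 4 fell and 0 rose (10.3%, against 17.3% of all genes tested), and DESeq2 called 0 higher. With an unadjusted p below 0.05 there were 11 lower and 0 higher (28.2%, against 30.9% of all genes tested). The median log2 fold change of the partners was -0.06, with 14 of 39 above 0. Foxm1, the transcription factor that drives late cell-cycle genes, went from 150, 140 and 153 CPM in WT to 121.7, 127 and 126 CPM in Abcc4-/- (log2 fold change -0.24, SE 0.05; edgeR adjusted p = 0.00932), and lost its call on centred log2(TPM + 1) alone (0.0789). Cit, the citron kinase of the midbody, fell by 0.33 (adjusted p = 0.0213), the separase gene Espl1 by 0.19 (0.0332) and the chromosomal passenger gene Cdca8 by 0.15 (0.0482). Cit lost its call without Abcc4-/- replicate 1 (0.0849) and on the TPM scales (0.0782 to 0.117), Espl1 on leaving out each library other than WT replicate 2 (0.0625 to 0.124) and on the TPM scales (0.159 to 0.391), and Cdca8 without any library (0.0554 to 0.170). Cenpe, a mitotic kinesin under another symbol, stood at -0.19 and did not pass (adjusted p = 0.160). The proliferation marker Mki67 had 643, 637 and 820 CPM in WT and 616, 622 and 696 CPM in Abcc4-/-, did not pass (-0.12, adjusted p = 0.473), and stood at 0.01 without WT replicate 3. Mitotic kinesin TPM was 0.205 ± 0.00570 of the summed partner TPM in WT and 0.199 ± 0.00406 in Abcc4-/- (SD, n = 3), ranges that overlapped.

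Adaptors link kinesins to cargo, and cytoplasmic dynein is the motor of the opposite direction. Of 24 adaptor and light chain genes that passed the filter, 1 rose and 1 fell (8.33%, against 17.3% of all genes tested), with a median log2 fold change of -0.03. At an unadjusted p below 0.05, 4 were higher and 5 lower (37.5%, against 30.9%). Kif1bp, which is also among the 43 kinesin-symbol genes, was 1 of the 4 higher. Rab6a, a Golgi GTPase whose vesicles recruit Kif20a and Kif5b, rose from 113, 106 and 108 CPM in WT to 132, 130 and 129 CPM in Abcc4-/- (0.26, SE 0.05; edgeR adjusted p = 0.00353). Rab27b, a GTPase of platelet granules, fell from 9.02, 9.36 and 11.1 CPM to 4.51, 5.65 and 5.56 CPM (-0.90, SE 0.11; adjusted p = 0.000341). The kinesin light chains Klc1, Klc2, Klc3 and Klc4 stood between 0.03 and 0.39, and none passed. Of 24 cytoplasmic dynein and dynactin genes that passed the filter, 2 were lower and 3 higher at unadjusted p below 0.05 (20.8%, against 30.9%). After adjustment 1 fell and 0 rose (4.17%, against 17.3%, median log2 fold change 0.00), and DESeq2 called 0 higher. The gene was the dynein regulator Ndel1 (-0.21, SE 0.05; adjusted p = 0.0213), which lost its call without WT replicate 1 or any Abcc4-/- replicate (0.0501 to 0.0848) and on centred log2(TPM + 1) (0.0618).

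Markers of several cell types moved with the genotype in these libraries, beside 8.61% of all genes called higher and 8.68% lower. Of 10 megakaryocyte markers 7 fell and 0 rose (median log2 fold change -0.68), of 10 neutrophil markers 8 rose and 1 fell (0.78), and of 8 B-lineage markers 6 rose and 0 fell (0.68). Of 8 T and NK markers 5 rose and 0 fell (0.88), although their summed level was 186 to 220 TPM in WT and 199 to 207 in Abcc4-/-. Of 8 erythroid markers 2 rose, 0 fell and 3 lay below 0 (0.30), and their summed level was 1360 to 1458 TPM in WT and 1006 to 1472 in Abcc4-/-. Of 6 mast cell and basophil markers 2 fell and 0 rose (-0.22, 3066 to 3884 and 2453 to 3048 TPM). None of these markers was at 0 in any library. The part of these shifts, and of the deeper Abcc4-/- libraries, in the kinesin results was not tested, except that 7 kinesin genes were called, including the same 6, after each library was thinned to the smallest total count.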

How the data were processed

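RNA of 6 samples labelled as megakaryocytes (3 WT, 3 Abcc4-/-) was sequenced from stranded mRNA libraries, per the labels' protocols. Per the submitters' processing notes, STAR 2.7, RSEM 1.3.1 and the mm10 build were used, with no annotation release named. The authors deposited expected counts per gene, as RSEM estimates them, not normalized. They also deposited TPM, scaled within each sample. The 92 spike-in entries, all at 0 counts, were left out.

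Expected counts were rounded and tested with edgeR 4.0.16 in R 4.3.3 (TMM, default filter, robust quasi-likelihood, WT against Abcc4-/- over all genes). SE and 95% intervals came from the fold change and its statistic. Genes with an adjusted p below 0.05 were called. Alternatives used DESeq2 1.42.0, limma 3.58.1, other scalings and filters, TPM with pseudocounts of 1 and 0.1, thinning, and each library left out.

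The kinesin genes, classes and partner lists were chosen with earlier results of these data known. Named genes were Abcc4, all mitotic kinesins, called kinesins, the 4 most abundant transport and remaining genes, up to 4 called partners per list, and Mki67; others, such as Kif16b, Kif1b and Kif19a, were added after their values were seen. Positions came from a GRCm38 annotation that matched 42 of 43 genes by versioned identifier, and promoters from RefSeq (GRCm38.p6). Protein sequences were not used here.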

Additional observations from a re-analysis of the deposited data

How the results depend on the processing

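The 25 named kinesin genes kept their direction and side of the threshold in 421 of 475 values under the alternatives, lost the call in 30, gained it in 4 and changed sign in 20. These 25 leave out other tested members, among them Kif1a, Kif3c and Kif5c. Those changed sign in 7 of 18, 5 of 19 and 0 of 18 alternatives. The kinesin genes called were 3 with limma on log2(TPM + 1), 3 on log2(TPM + 0.1) and 1 on centred log2(TPM + 1). With each library left out they were 2 to 6. Over all genes, 12.8%, 13.1% and 12.1% were called on these TPM scales, beside 17.3% in the main fit. With each library left out, 10.6% to 14.3% of all genes were called. Mitotic calls were 1 on the centred scale and 0 to 2 with each library left out. Transport calls were 0 on each TPM scale and 2 after thinning. The difference of class medians turned to 0.0069 on log2(TPM + 1) and its centred form, 0.045 on log2(TPM + 0.1) and 0.0059 with wide classes, and ran from -0.025 to 0.032 with each library left out. On log2(TPM + 1) the medians were -0.12 for mitotic and -0.12 for transport kinesins, beside -0.06 for all genes tested, and after centring they were -0.03 and -0.04, beside 0.03.

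Sign changes of single genes were all among genes that did not pass. On log2(TPM + 1) and log2(TPM + 0.1), Kif1c stood at -0.057 and -0.060, Kif22 at -0.035 and -0.035, and Kif21b at -0.022 and -0.023. On the centred scale Kif20a stood at 0.0090 and Kif20b at 0.042. Kif18a stood at 0.0014 with upper-quartile factors, 0.00012 with DESeq2 and 0.0053 without a filter. With each library left out, Kif20a ran from -0.076 to 0.0086, Kif20b from -0.12 to 0.052, Kif18a from -0.054 to 0.095, Kif2c from -0.042 to 0.012 and Kif15 from -0.091 to 0.0085. The cause of these changes was not tested.

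The same-numbered samples did not deviate together (correlations -0.046, -0.026 and -0.014 across genes), so the numbers were not taken as pairs. With the replicate number as a block, 7 kinesin genes were called, 4 of them mitotic, with Kif14 added (adjusted p = 0.0381), and Kif18a turned to 0.0020. The share of calls that were higher, over all genes, was 49.8% with edgeR, 28.4% on log2(TPM + 1) and 57% after centring.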
